A study of Mus musculus with 2 samples.

Results

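The genes described here are 9 genes of central nervous system myelin, Mbp, Cnp, Mag, Mog, Omg, Enpp2, Myrf, Cldn11 and Mobp, found by their symbols among the 32285 genes of the count matrices. Their unique molecular identifiers (UMIs, 1 per captured transcript) were counted in 1 library of adherent and 1 library of neurosphere GL261 cells, a mouse glioma line that the labels call an astrocytoma of the C57BL/6 strain. Both cultures grew in DMEM with 10% serum and antibiotics, and neurospheres also received B-27 at 1:50 with Epidermal Growth Factor at 20 ng/ml and Fibroblast Growth Factor at 20 ng/ml, and were harvested after 12 days. Per the labels both were treated with trypsin, neurospheres were also broken up by trituration through ever finer pipettes, and both were frozen and shipped before library preparation with the 10x Genomics 3′ v3 protocol. Because each culture is a single library of a single cell line, no difference between them has a replicate check, no test was run, and every 95% interval below covers counting error only.

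Oligodendrocytes wrap axons in myelin, a compacted stack of membrane rich in lipid. They arise from precursor cells that carry Olig1, Olig2 and Sox10, pass through a newly formed stage marked by Bcas1, Enpp6 and Gpr17, and then switch on the structural proteins of the sheath together. Myelin basic protein (Mbp) holds the cytoplasmic faces of the membrane together, Cnp is an enzyme of the uncompacted myelin channels, and Mobp is a further protein of compact myelin. Mag, Mog and Omg are surface glycoproteins, Mog on the outermost face of the sheath and Mag on the innermost membrane next to the axon, and Mag and Omg bind the Nogo receptor on axons. Myrf is the transcription factor that switches on myelin genes, Cldn11 forms the tight junctions between myelin layers, and Enpp2 (autotaxin) is a secreted enzyme that makes lysophosphatidic acid.

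Since Myrf is itself a member, the promoters of the other members were searched for its motif, CTGGCAC or CTGGTAC on either strand, in the 250 bases before each start. RefSeq (GRCm38.p6) gave promoters for 5 members, Cnp, Mag, Mog, Cldn11 and Mobp. The motif was found in Cnp, Mag and Mog and not in the windows of Cldn11 and Mobp, and 5.93% of 32851 promoters of that length held it. Mag has 3 overlapping or neighbouring windows, and the other members have 1 each. Of the 3, the 2 that overlap held the motif, as the same single site. The SOX motif ACAAAG was found in Cnp, Mag and Mobp (16.5% of promoters), and the E-box CANNTG in Cnp and Mag (66.2% of promoters). A match describes letters and not a bound site. The 3 promoters with the Myrf motif are shown 5′ to 3′ in the direction of the gene, with the motif in capitals. The motif ends 74 bases before the RefSeq start of Cnp, 39 of which are shown (chr11:100574689-100574903, plus strand, cut just before the first base of the GENCODE gene), 2 bases before a start of Mag (chr7:30914923-30915172, minus strand, the farthest upstream of its entries) and 76 bases before that of Mog (chr17:37023399-37023648, minus strand, with the motif read on the opposite strand to the gene).
Cnp: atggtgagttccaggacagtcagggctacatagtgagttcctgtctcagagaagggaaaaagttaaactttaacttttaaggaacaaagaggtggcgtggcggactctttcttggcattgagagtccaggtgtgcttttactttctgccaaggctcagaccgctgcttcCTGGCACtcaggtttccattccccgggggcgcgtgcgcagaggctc
Mag: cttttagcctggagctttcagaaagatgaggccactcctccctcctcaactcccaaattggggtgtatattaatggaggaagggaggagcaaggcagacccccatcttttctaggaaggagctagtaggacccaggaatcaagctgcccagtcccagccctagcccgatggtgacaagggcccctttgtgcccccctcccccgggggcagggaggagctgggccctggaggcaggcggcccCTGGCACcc
Mog: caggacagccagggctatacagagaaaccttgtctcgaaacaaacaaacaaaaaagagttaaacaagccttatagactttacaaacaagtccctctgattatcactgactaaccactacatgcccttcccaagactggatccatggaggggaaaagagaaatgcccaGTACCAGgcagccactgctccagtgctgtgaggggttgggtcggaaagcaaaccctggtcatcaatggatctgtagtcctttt

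In the GENCODE annotation of GRCm38, Mbp (ENSMUSG00000041607) spans bases 82475146 to 82585637 of chromosome 18 (plus strand). Its 16 annotated transcripts share 1 count in these data, and the gene is known to give, besides the myelin proteins, Golli proteins from a start far upstream, which are also made outside myelin. Cnp (ENSMUSG00000006782) lies on chromosome 11 from 100574904 to 100591729, and Cldn11 (ENSMUSG00000037625) on chromosome 3 from 31149920 to 31164324, both on the plus strand. Mobp (ENSMUSG00000032517) spans 120149707 to 120181484 of chromosome 9, also on the plus strand. Mag (ENSMUSG00000036634) lies on chromosome 7 from 30899176 to 30914873, Mog (ENSMUSG00000076439) on chromosome 17 from 37010743 to 37023398, and Myrf (ENSMUSG00000036098) on chromosome 19 from 10208272 to 10240748, all on the minus strand. Enpp2 (ENSMUSG00000022425) runs from 54838901 to 54952892 on the minus strand of chromosome 15. Omg (ENSMUSG00000049612), from 79500982 to 79504084 on the minus strand of chromosome 11, lies inside Nf1, which is on the opposite strand, and touches none of its exons. No member overlaps another gene of the count matrix on its own strand.

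After removal of mitochondrial and ribosomal genes and of low-quality barcodes, 5051 adherent and 4276 neurosphere cells were kept, with 46290996 and 64943938 UMIs and medians of 8260 and 13198.5 UMIs per cell. Because neurosphere cells were deeper, detection was also scored after drawing 5000 UMIs at random from every cell (called thinning below), which kept 4464 adherent and 4196 neurosphere cells. Unless removed barcodes are named, all counts and levels are over the kept cells. The libraries shared 12 barcodes. Of the markers of the labelled astrocytic type, Aqp4 had 0 UMIs in both cultures and Gfap had 30 and 27, while Slc1a3 had 17148 and 5231 and S100b 7437 and 16535. Both libraries come from 1 line, so the background of detection from free RNA could not be read from a cell type without these genes.

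Of the 9 myelin genes, 6 exceeded their adherent level by over 2-fold in the neurosphere library (Cnp, Mag, Mog, Omg, Enpp2 and Myrf), as did 21.7% of the 14654 genes with 50 UMIs or more in all. Mbp alone was over 2-fold lower, as were 11.7% of all genes. Cldn11 was lower by less than 2-fold, and Mobp was near 0 in both. The median log2 difference was 4.55 over the members, or 4.62 without Mobp, and 0.32 over all genes. With TMM scaling, 16.1% of genes were over 2-fold higher and 14.5% lower, and with the mitochondrial and ribosomal UMIs left in the totals 29.5% and 9.38%, while the 6 members stayed higher under both.

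Among the structural proteins, Cnp was higher in neurosphere cells. It was at 20.1 CPM (UMIs per 1000000 UMIs of the library; interval 18.9 to 21.5) in adherent cells and 520.0 CPM (514 to 526) in neurosphere cells, a log2 difference of 4.69 (4.60 to 4.79), or 25.8-fold. Adherent cells held a UMI of Cnp in 15.6% of cases and neurosphere cells in 90.5%, or in 9.41% and 76.1% after thinning. At least 5 Cnp UMIs were held by 58.3% of neurosphere cells and by 1 adherent cell.

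Mbp went the other way in level and in share of cells. It was at 255 CPM (250 to 259) in adherent cells and 124 CPM (121 to 126) in neurosphere cells, a log2 difference of -1.04. The neurosphere level was 0.485 of the adherent level (0.471 to 0.499). Relative to the median of all genes the difference was -1.37. Mbp was detected in 71.1% of the adherent cells but 39.4% of the neurosphere cells, or 58.9% and 25.3% after thinning, so fewer of the deeper neurosphere cells held it. The neurosphere cells that did hold Mbp held more of it, with a mean of 4.76 UMIs against 3.28 and a highest count of 77 UMIs in 1 cell against 28. The 1% of neurosphere cells with the most Mbp held 18.8% of its UMIs, and the same fraction of adherent cells held 6.77%. The difference crossed the 2-fold line with the setting and was -0.78 with thinned cells.

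The kept cells of each library held 3 UMIs of Mobp, too few for a fold.

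The surface glycoproteins were at or near 0 in adherent cells and present in neurosphere cells. Omg had 0 UMIs among the 5051 adherent cells, which allows a UMI in up to 0.0594% of cells, and 1801 UMIs in neurosphere cells, where it was at 27.7 CPM (26.5 to 29.0) and in 19.8% of cells. With 3 UMIs set in place of 0 for the adherent library as a whole, Omg was 428-fold higher in neurosphere cells. The lower end of the exact counting interval was 348-fold. With thinned cells, which hold fewer UMIs, the limit of 3 gave a log2 difference of 7.79, with a lower end of 7.49. Nf1, the gene that surrounds it on the other strand, had 3389 UMIs in adherent cells and differed by 0.62 on the log2 scale. Mog counted 15 UMIs in the adherent library (0.324 CPM), 1 in each of 15 cells, against 760 in the neurosphere library (11.7 CPM), where 10.3% of cells held it and 1 cell held 25 UMIs. Its log2 difference was 5.17 (4.44 to 6.02). Mag counted 2 adherent UMIs and 193 neurosphere UMIs (2.97 CPM), the latter in 2.60% of cells, a ratio of 68.8 with a counting interval from 18.8 to 572.

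Myrf, the regulator, was at 0.907 CPM (0.654 to 1.23) in adherent cells, as 42 single UMIs in 42 cells, and at 21.3 CPM (20.2 to 22.4) in neurosphere cells. The log2 difference was 4.55 (4.11 to 5.03), and the share of cells holding it was 0.832% against 22.7%. Cldn11, the tight junction protein, was at 18.4 CPM (17.2 to 19.7) in the adherent library and 10.6 CPM (9.86 to 11.5) in the neurosphere library, a log2 difference of -0.79 (-0.94 to -0.64). Its shares of cells were 14.1% and 11.9%, or 8.13% and 4.60% after thinning.

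Enpp2, the autotaxin gene, was at 4.41 CPM (3.82 to 5.05) in the adherent and 19.3 CPM (18.3 to 20.4) in the neurosphere library, a log2 difference of 2.13 (1.92 to 2.35). It was the most unevenly held of Mbp, Cnp, Enpp2 and Cldn11, the members with over 50 UMIs in each culture. The 1% of cells with the most Enpp2 held 66.2% of its UMIs in adherent and 52.4% in neurosphere cells, and single cells reached 36 and 85 UMIs, although only 2.36% and 10.4% of cells held any. In the neurosphere library, Mag was more uneven, with 63.7% of its 193 UMIs in the 1% of cells with the most. Without 1 group of neurosphere cells described below (cluster 6), the log2 difference of Enpp2 was 1.31.

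**Figure D1:**
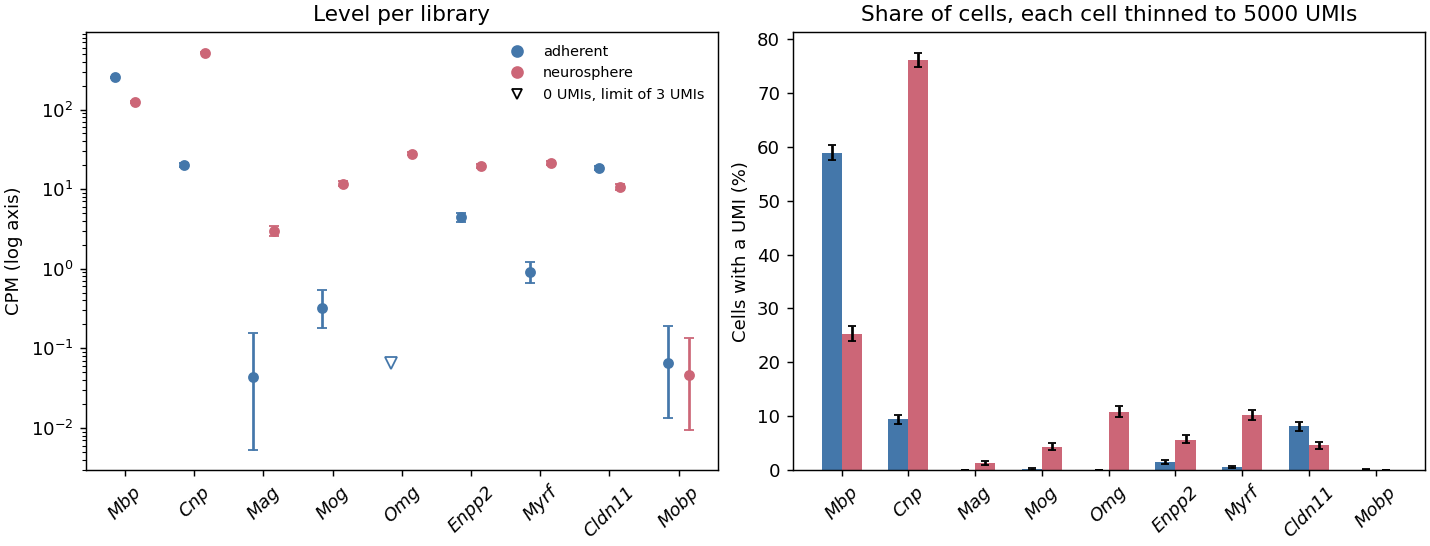
Left, level of each myelin gene in CPM on a log axis in adherent and neurosphere cells, with exact Poisson intervals and the limit of 3 UMIs for Omg in adherent cells. Right, percent of cells with a UMI after each cell was thinned to 5000 UMIs, with exact binomial intervals. Cnp, Mag, Mog, Omg, Enpp2 and Myrf lie higher in neurosphere cells, Mbp and Cldn11 lie lower, and Mobp is near 0 in both.

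Myelin genes were also counted per cell. At least 2 of the 9 were found in 22.6% of adherent cells (21.4% to 23.8%) and 60.5% of neurosphere cells (59.0% to 62.0%), and after thinning in 11.4% (10.5% to 12.4%) and 37.3% (35.8% to 38.8%). At least 2 genes were thus found in 511 thinned adherent cells, where the shares of the single genes multiplied together would give 511 cells, and in 1564 thinned neurosphere cells, where they would give more, 1687. At least 3 were found in 39 thinned adherent cells, against 30.2 from the shares, and in 601 thinned neurosphere cells, against 383. For at least 4 genes, 1 adherent and 169 neurosphere cells were found, against 0.508 and 46.6 cells from the shares alone. The most in any cell before thinning was 4 of the 9 genes in adherent and 7 of the 9 in neurosphere cells. A single myelin gene was held by 54.9% of all thinned adherent and 44.7% of all thinned neurosphere cells, and before thinning by 56.1% and 33.3%.

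**Figure D2:**
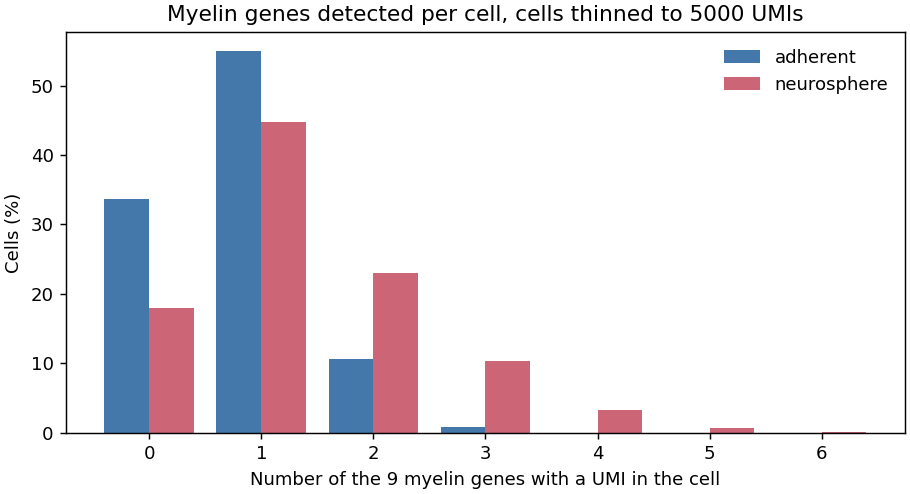
Percent of cells by the number of the 9 myelin genes with a UMI, each cell thinned to 5000 UMIs, in adherent and neurosphere cells. Adherent cells stop almost entirely at 2 genes, and neurosphere cells reach 6, with 14.3% of them at 3 or more against 0.874% of adherent cells.

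Pairs of myelin genes met in the same neurosphere cells more often than their shares would give, and in adherent cells fewer pairs could be scored. The comparison used thinned cells and the pairs for which the shares gave at least 5 cells with both genes. In neurosphere cells, 24 of 25 such pairs were found together more often, with a median ratio of 1.47, and Mog with Enpp2 was the exception at 0.68 (0.27 to 1.39, 7 cells). The counting interval lay above 1 for 15 of the 24 and included 1 for the other 9, among them Cnp with Enpp2 at 1.09 (0.94 to 1.25). These intervals take the number of cells with both genes as a free count. That number cannot exceed the cells with each gene alone, so the intervals are too wide for pairs with Cnp. Cnp was found in 76.1% of all thinned neurosphere cells. It was in 82.8% of those with Enpp2 and 96.3% of those with Mag, the lowest and highest of its scored pairs. In adherent cells, 3 of 7 such pairs had a ratio over 1, with a median of 0.96 and a range from 0.72 to 1.20. The interval lay above 1 for 0 of these 7. The same 7 pairs had ratios from 1.09 to 2.26 in neurosphere cells. A ratio also has a ceiling that falls as the commoner gene of the pair is found in more cells. It is lowest for pairs with Cnp in neurosphere cells and with Mbp in adherent cells, so ratios do not rank the pairs by strength. Cells that differ in size or quality share these differences over all genes, so the ratios are a description.

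Mbp was detected in many cells of both cultures. With Cnp, Mbp was found in 238 adherent cells against 247 from the shares, a ratio of 0.96 (0.84 to 1.09), and their log normalized values had a Pearson correlation of -0.02 over 4464 cells. In neurosphere cells the pair was found in 951 cells against 809, a ratio of 1.18 (1.10 to 1.25), with a correlation of 0.37 over 4196 cells. Mbp and Mag were found together in 40 neurosphere cells against 13.7, a ratio of 2.92 (2.09 to 3.98). The ratio for Mbp was 2.26 with Enpp2, 1.99 with Omg, 1.71 with Mog, 1.65 with Myrf and 1.53 with Cldn11. Among pairs without Mbp, Mag and Omg had a ratio of 2.90 from 17 cells, Mag and Myrf 2.54 from 14 cells, and Mog and Myrf 1.93 from 36 cells.

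**Figure D3:**
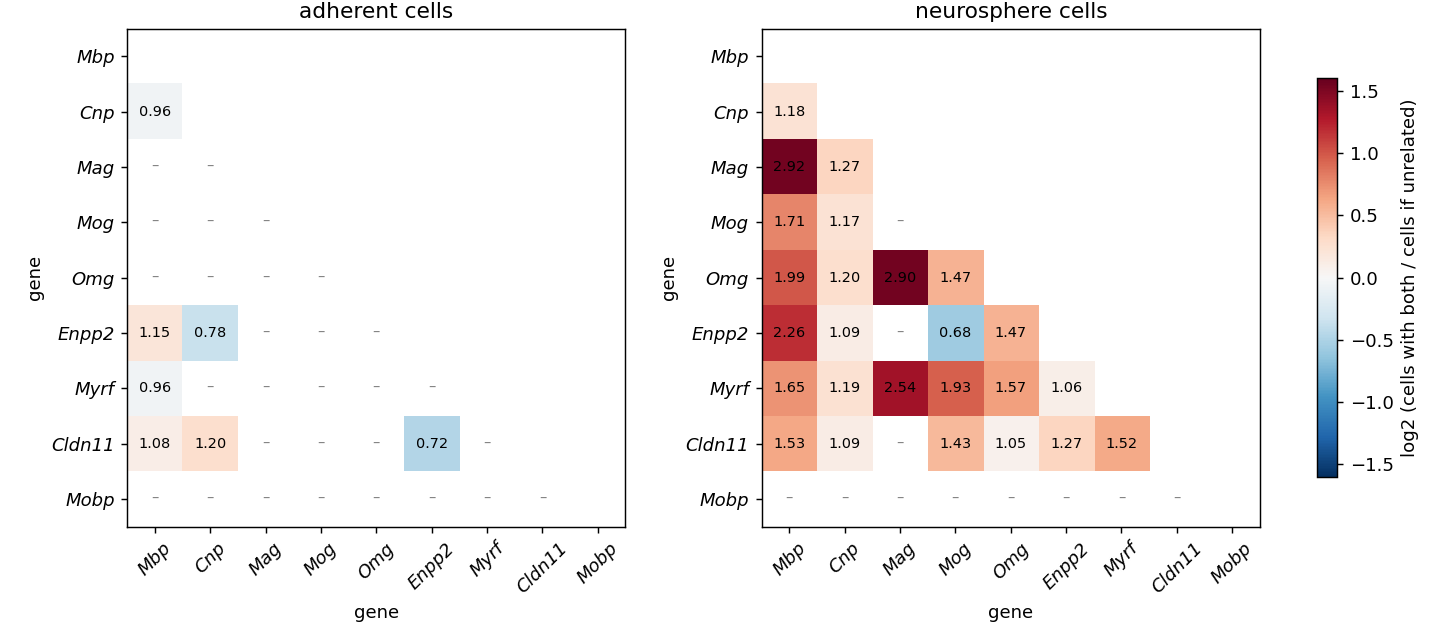
Cells with a UMI of both genes of a pair, divided by the number the single shares would give, in adherent (left) and neurosphere (right) cells thinned to 5000 UMIs. Numbers are ratios, colours their log2, and a dash marks a pair for which the shares gave fewer than 5 cells. Neurosphere ratios are highest for Mag with Mbp, Omg and Myrf, and adherent ratios lie from 0.72 to 1.20. The ceiling of a ratio falls as the commoner gene is found in more cells, so ratios of different pairs are not on 1 scale.

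Cells were also sorted by their Mbp count. In neurosphere cells, Cnp was found in 71.5% of the 3133 cells without Mbp and in 98.4% of the 129 cells with 5 to 9 Mbp UMIs. Bcas1, a marker of newly formed oligodendrocytes, went from 43.9% to 96.9%, and Mag from 0.447% to 10.9%. Omg was found in 7.21% and 28.7%, Enpp2 in 3.26% and 17.8%, and Mog in 3.29% and 11.6% of the same cells. Myrf was found in 7.98% and 17.8%. In the 61 neurosphere cells with 10 or more Mbp UMIs, Myrf was found in 31.1%, Omg in 23.0% and Mog in 8.20%, the last 2 below their shares in the cells with 5 to 9. Krt8, a keratin of simple epithelium present in most neurosphere cells, was found less often in cells with more Mbp, in 71.1% of cells without Mbp and 30.2% of those with 5 to 9 UMIs.

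In adherent cells, Cnp was found in 9.92% of the 1834 cells without Mbp and in 10.6% of the 216 cells with 5 to 9 Mbp UMIs. Over the same groups Cldn11 was found in 7.25% (6.11% to 8.54%) and 9.72% (6.12% to 14.5%), Enpp2 in 1.20% (0.753% to 1.81%) and 2.78% (1.03% to 5.95%), and Bcas1 in 9.49% (8.18% to 10.9%) and 14.8% (10.4% to 20.3%), with intervals that overlap for each gene. Mag, Mog, Omg and Myrf were at 0 in those 216 cells. Col2a1, which encodes the main collagen of cartilage, went from 6.92% to 33.3% over the same groups, and Top2a, a gene of dividing cells, from 60.1% to 44.4%. In neurosphere cells Col2a1 was found in 17.1% of cells without Mbp and 11.6% of those with 5 to 9 UMIs. The adherent group with 10 or more Mbp UMIs held 19 cells, of which 21.1% (6.05% to 45.6%) held Enpp2 and 0 held Cnp.

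**Figure D4:**
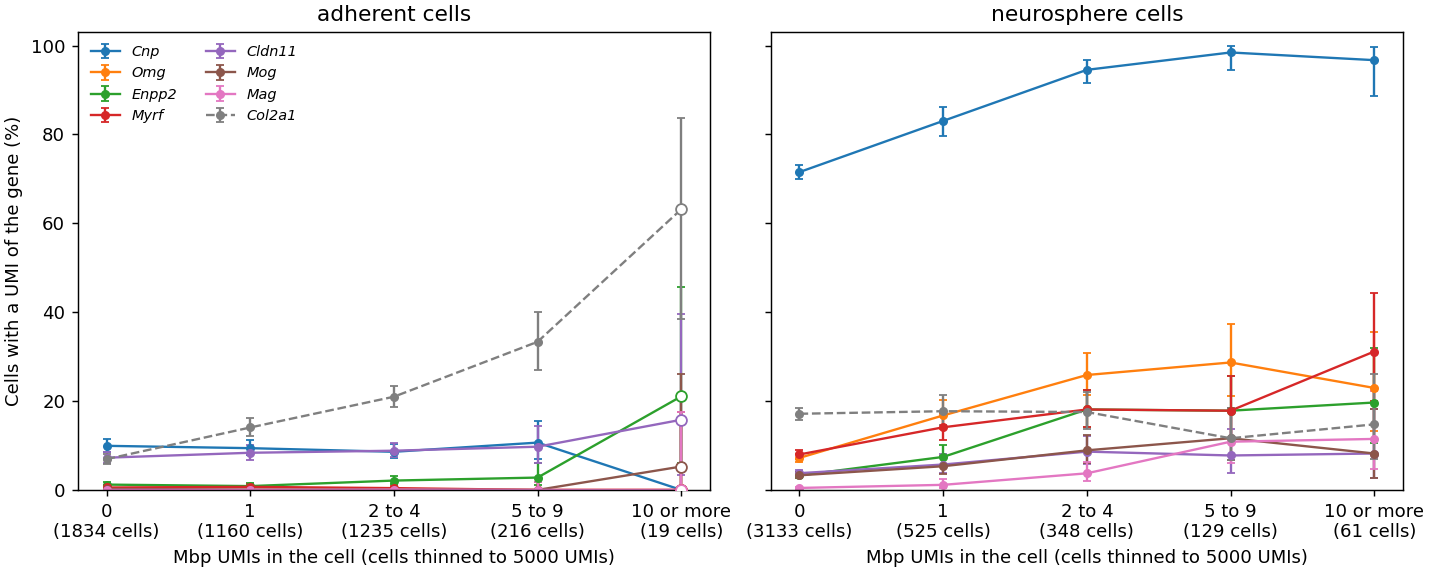
Percent of cells with a UMI of other genes by the Mbp UMIs of the cell, each cell thinned to 5000 UMIs, in adherent (left) and neurosphere (right) cells, with exact binomial intervals. The dashed line is a gene outside the 9, and open points a group of 19 cells. Cnp, Omg and Mag lie higher in neurosphere cells with Mbp than in those without, and Col2a1 lies higher with more Mbp in adherent cells.

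The genes whose values followed each member most closely across cells also differed between the cultures. In neurosphere cells, Bcas1 was among the 3 nearest genes of Mbp (Pearson correlation 0.53), Cnp (0.42), Omg (0.23), Mag (0.16), Mog (0.16) and Myrf (0.17). Mbp was also followed by Ppp2r2b (0.47), Cnp by Traf4 (0.37), Mog by Tubb4a (0.14), and Omg (0.26) and Mag (0.18) by Gatm, an enzyme of creatine synthesis. Myrf was followed by Qk (0.16), an RNA-binding protein needed for myelin, and Pde4b (0.16). Enpp2 was followed by Erbb3 (0.35), a neuregulin receptor, Serpina3n (0.29) and Pmel (0.28), and Cldn11 by the mitotic gene Ube2c (0.10) and by Cks2 (0.08). In adherent cells, Mbp was followed by F3, which encodes tissue factor (0.33), Dbi (0.28) and Atp6v0e (0.27). The 3 genes nearest to adherent Cnp, Polr3k, Rgcc and Cd81, reached 0.08 at most, and those nearest to adherent Cldn11 (Atad5, Bbs12 and Brip1) 0.07. Adherent Enpp2 was followed by Fam241a (0.15), Scrg1 (0.11) and Col2a1 (0.11). These are correlations over 4196 or 4464 cells of 1 library, which are not replicates, and correlations under 0.1 in such sparse counts are no finding.

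Cells were then clustered in each library without the 9 genes and without 62 other genes of the oligodendrocyte lineage, so that the levels below did not place the cells. There were 10 clusters in each culture, and the clusters are given by number. Neurosphere cluster 6, with 392 cells (9.17% of the library), had the highest level of 7 of the 8 myelin genes with over 100 UMIs, all but Cldn11. Mbp was at 786 CPM (757 to 815) there and at 16.8 CPM to 252 CPM in the other clusters, and Enpp2 at 162 CPM against 2.78 CPM to 35.3 CPM. Cnp was at 1153 CPM, Omg at 90.3 CPM, Myrf at 38.9 CPM, Mog at 28.1 CPM and Mag at 15.0 CPM. The cluster held 46.6% of all Enpp2 UMIs, 35.2% of Mbp, 28.0% of Mag and 12.3% of Cnp. Cluster 1, with 550 cells and a median of 15598.5 UMIs, held a larger part of the UMIs of Mag, Cnp, Omg, Mog and Myrf. Outside the genes kept out of the clustering, Gm4876, Pmel, Ppp2r2b and Lsamp were among its leading genes, and Gpr17, a receptor of the newly formed stage, was at 74.2 CPM. All 3 Mobp UMIs of the kept neurosphere cells lay in cluster 6. Its median was 8226 UMIs per cell, under the library's 13198.5.

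Co-detection also differed between clusters. At least 2 myelin genes were found in 84.8% of the thinned cells of cluster 6 and in 8.26% to 55.8% of the cells of the others. Leaving cluster 6 out, 22 of 23 pairs still had a ratio over 1, with a median of 1.27 against 1.43 for the same pairs with cluster 6. Of these 23 ratios, 15 were higher and 8 lower without it, and that of Mbp with Mag was 3.03. The levels of Mbp in the cultures then lay further apart, with a log2 difference of -1.59. Cluster 1 (550 cells) was led by Depdc1b, Adgrb3 and the mitotic gene Aspm. It had the next highest Mbp (252 CPM), Mag (8.47 CPM), Mog (15.6 CPM), Omg (47.8 CPM) and Myrf (35.3 CPM), and the highest Cldn11 (17.1 CPM). The counting intervals overlapped for Myrf between clusters 6 (32.7 to 45.9) and 1 (31.6 to 39.3), and for Cldn11 between clusters 1 (14.5 to 19.9) and 4 (15.3 CPM, up to 17.8). Cluster 7, led by Wnt7b, Prss56 and Steap3, had the lowest Mbp (16.8 CPM) and Mag (0.360 CPM), and cluster 9, led by Tnnt3, Lbhd2 and Tnni2 (109 cells), the lowest Cnp (102 CPM), Mog (2.02 CPM), Omg (3.53 CPM) and Myrf (3.03 CPM). These lowest levels of Mag, Mog, Omg and Myrf rest on 3 to 7 UMIs. Opalin, a late myelin gene outside the 9, did not follow them, at 13.3 CPM in cluster 7 and 1.11 CPM in cluster 6.

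Among adherent clusters, cluster 8 had the lowest Mbp and the highest Cnp. Mbp was at 478 CPM (460 to 497) in cluster 2 (707 cells), led by Col2a1, Hhla1 and Gas7, and at 132 CPM (117 to 149) in cluster 8 (225 cells), led by Ly6a, Cd81 and Rgcc. Cnp was at 15.1 CPM in cluster 5, its lowest, and 49.1 CPM in cluster 8. Enpp2 was at 14.5 CPM in cluster 2 and 12.8 CPM in cluster 6, and had 0 UMIs in cluster 8. Cldn11 lay between 13.6 CPM in cluster 8 and 31.3 CPM in cluster 9, the latter from 6 UMIs with an interval (11.5 to 68.2) that takes in the values of all other clusters. Mbp was highest of all, at 653 CPM (544 to 778), in cluster 9, which held 60 cells with a median of 2792 UMIs and 10.3% mitochondrial UMIs, where the median kept adherent cell had 2.02%.

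**Figure D5:**
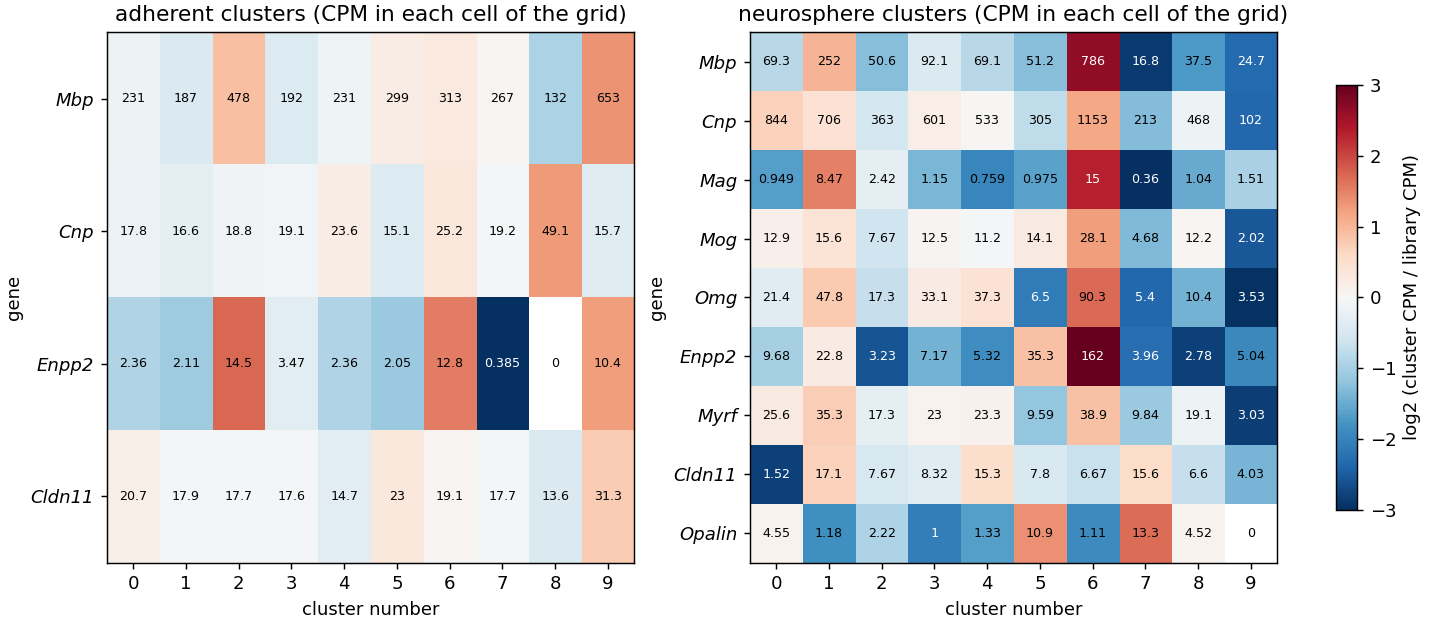
Level in CPM (numbers) of the myelin genes with at least 100 UMIs in the library, and of Opalin in neurosphere cells, in the 10 clusters of adherent (left) and neurosphere (right) cells. Colours give the log2 ratio to the level of the whole library, and white with 0 marks no UMI. Neurosphere cluster 6 is highest for Mbp, Cnp, Mag, Mog, Omg, Enpp2 and Myrf, and adherent cluster 8 is low for Mbp and high for Cnp.

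Cells were also split into equal groups of low, middle and high summed UMIs of 12 cell cycle genes. Mbp was found in 66.7% of the thinned adherent cells with the fewest cycle UMIs and 51.7% of those with the most, and in 31.3% and 20.6% of neurosphere cells. In neurosphere cells, Cnp was found in 82.3% and 72.1%, Enpp2 in 8.51% and 3.86%, and Mog in 5.22% and 2.79%. Cldn11 had the reverse order there, with 2.86% and 6.50%, and Omg was found in 11.4% of both groups. Summed over the libraries, the 12 cycle genes came to 2860 CPM (adherent) and 2647 CPM (neurosphere).

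Other genes of the lineage were read from lists, counting the genes that reached 50 UMIs in all. Over all genes at that count, 21.7% were over 2-fold higher and 11.7% over 2-fold lower in neurosphere cells. These shares stand beside the counts of this and the later lists. Of 23 other myelin and mature oligodendrocyte genes, over 2-fold differences were 9 higher and 4 lower in neurosphere cells, with a median log2 difference of 0.59. They ran from Opalin (7.60, from 1 to 273 UMIs) to Ppp1r14a (-4.82), and Ermn, Aplp1 and Tmem125 had 0 UMIs in both cultures. Of 7 genes of committed and newly formed oligodendrocytes, 5 were higher and 1 lower, from Gpr17 (9.33, from 1 to 904 UMIs) to Rras2 (-3.46). Enpp6, a marker of that stage with fewer than 50 UMIs, had 13 and 2. Of 17 precursor genes, 11 were higher and 0 lower, with a median of 1.86, from the protocadherin Pcdh15 (5.58) to Matn4 (-0.72). The 16 enzymes and regulators of myelin lipid synthesis included 9 that were higher and 0 lower, with a median of 1.53. Fa2h, which hydroxylates the fatty acids of myelin lipids, was the highest at 4.02, and the desaturase gene Scd2 the lowest at 0.08.

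Of 14 regulators that drive myelin genes, neurosphere cells had 7 at over 2-fold higher and 0 at over 2-fold lower levels, with a median of 1.44. Sox8, a partner of Sox10, was at 0.410 CPM and 60.5 CPM (log2 difference 7.20). Sox10, which acts upstream of Myrf and Mbp, was at 167 CPM and 194 CPM (0.22), and Nkx2-2 was at 10.5 CPM and 11.9 CPM (0.17). Olig1 differed by 3.20, Olig2 by 2.74, Zfp488 by 4.13, the chromatin remodeler Chd7 by 3.49, Myt1 by 2.69 and Tcf7l2 by 2.36. Among 10 regulators that hold myelin genes back, 4 were higher and 2 lower. Gpr17, the Notch target Hes5 (5.82), Sox6 (2.32) and Egr1 (1.89) were higher, and Id2 (-1.48) and Sox5 (-1.52) lower.

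The receptors that bind Mag and Omg were read from a list of their own. Rtn4r, the Nogo receptor, had 1 and 3 UMIs, and its coreceptor Lingo1 had 2 and 6. Of 5 genes of the complex with at least 50 UMIs, 0 passed 2-fold upwards in neurosphere cells and 2 passed it downwards, where 21.7% and 11.7% of all genes did. These were the neurotrophin receptor Ngfr (-3.42) and Rtn4rl1 (-2.01). The 5 include the ligand Nogo itself, Rtn4, which was at 509 CPM and 333 CPM. Of 9 genes around lysophosphatidic acid, the product of autotaxin, 4 were higher and 2 lower. The receptors Lpar6 (1.64), Lpar4 (1.40) and Lpar2 (1.27) and the related enzyme Enpp3 (3.84) were higher, and Plpp1 (-1.51), a phosphatase that degrades it, and Enpp1 (-2.46) were lower. Lpar1 had 3 and 9 UMIs and Lpar3 had 0 in both.

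Markers of other cell types that share these genes were read beside them. Of 9 Schwann cell myelin genes, 2 were higher and 1, Dhh (-2.73), was lower in neurosphere cells. The 10 choroid plexus genes, a tissue that holds much Enpp2, summed to 5.01 CPM and 5.31 CPM, with 1 of 4 higher, Slc4a5 (1.36), and 1 lower, Folr1 (-3.11). The 10 cartilage genes summed to 651 CPM and 3338 CPM, with 5 of 8 higher, from Matn1 to Snorc (-0.22), and Sox9 at 0 UMIs in both. Matn1 had 0 and 7603 UMIs, a log2 difference of 10.82 against 3 UMIs, with a lower end of 10.52. Simple epithelial genes summed to 25.9 CPM and 3174 CPM, with 3 of 3 higher, Krt8 by 9.59 and Epcam, the least, by 2.50. Astrocyte genes summed to 607 CPM and 430 CPM, with 0 of 7 higher and 2 lower, from Fabp7 (0.67) to Slc1a3 (-2.20). Neuron genes summed to 51.6 CPM and 237 CPM, with 2 of 3 higher, Map2 at 2.89 and Tubb3 at 0.68. Microglia genes summed to 16.3 CPM and 6.53 CPM, with 2 of 3 lower, from Cx3cr1 (-0.59) to Tmem119 (-7.76), and endothelial genes to 26.5 CPM and 26.0 CPM, with 1 of 2 higher, Pecam1 at 1.28 and Flt1 at -0.14. The part of these cell types in the levels of the 9 myelin genes was not tested.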

How the data were processed

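The authors deposited, for 1 adherent and 1 neurosphere library, the raw UMI count of each gene in each cell called by Cell Ranger 7.0.1 on mm10, per the submitters' processing notes, without normalization. The annotation and the setting for introns are not given in the sources used here. The matrices held 5764 and 4951 cells with 68531063 and 82832873 UMIs. The 13 mitochondrial and 101 ribosomal genes were removed, then cells with under 1000 UMIs or under 1250 (adherent) or 2250 (neurosphere) genes. With cells filtered first, 5073 and 4300 cells remained. Doublets were not called or removed. Leaving out cells over the 95th percentile of UMIs was an alternative. UMIs were summed per library and divided by their total to give CPM, and log2 ratios carry exact conditional 95% intervals. Shares carry exact binomial and CPM exact Poisson intervals. The fold interval held the true value for 95.5% of 200 genes changed in simulated data. Those data drew each gene's library total as a Poisson count, the error that the interval covers. They left out the uneven spread of UMIs over cells, so they do not test the interval for that. A library at 0 was given 3 UMIs.

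Clusters came from Seurat 5.3.0 (R 4.3.3) in each library, with 2000 variable genes, 17 PCs (adherent) and 18 PCs (neurosphere) and a resolution of 1.0. TMM used edgeR 4.0.16, and other steps Python 3.11.15 with numpy 2.4.6, scipy 1.17.1 and pandas 2.3.3. Of the gene identifiers, 32235 matched GENCODE M21.

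The members and the 17 other gene lists were chosen with earlier results of these data known. Named were the members, the 3 genes most correlated with each member that had at least 100 UMIs in a library (among genes in at least 5% of its cells), the highest and lowest of each list, and any gene of the regulator, Nogo receptor and lysophosphatidic acid lists. Other genes were named after their values were seen, and some genes that the rule takes in are not reported here.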

Additional observations from a re-analysis of the deposited data

Results flagged for a closer look

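The barcodes left out by the filter on cells also held UMIs of the myelin genes, above the limit that a count of 0 allows. They numbered 713 in the adherent library, with a median of 48.8% mitochondrial UMIs, and 675 in the neurosphere library, with 87.0%. The adherent ones held 180 UMIs of Mbp, 14 of Enpp2, 11 of Cnp and 5 of Cldn11. The neurosphere ones held 321 UMIs of Cnp, 121 of Mbp, 35 of Enpp2, 14 of Myrf, 13 of Omg, 9 of Mog and 8 of Cldn11. Against all UMIs of those barcodes on the genes left, Mbp was at 459 CPM in the adherent and 211 CPM in the neurosphere ones, and Cnp at 28.1 CPM and 559 CPM, so both genes had the same order of the cultures as in the kept cells. Cldn11 had the reverse order to the kept cells, at 12.8 CPM and 13.9 CPM from its 5 and 8 UMIs.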

How the results depend on the processing

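The 6 myelin genes that were over 2-fold higher in neurosphere cells kept that count under every cell filter, scaling and depth setting tried, and no direction reversed. The count over 2-fold lower, 1 in the report (Mbp), was 0 without cells over the 95th percentile of UMIs, with the mitochondrial and ribosomal UMIs left in the totals, with thinned cells and with Seurat's mean over cells, and 2 with TMM scaling, which adds Cldn11 at -1.01. The log2 difference of Mbp ran from -1.59 without neurosphere cluster 6 to -0.78 with thinned cells, and that of Enpp2 from 1.31 to 2.56 at the same settings. The median of all genes was 0.32, 0.11 with TMM scaling and 0.54 with the mitochondrial and ribosomal UMIs left in. At least 2 myelin genes were found in 19.9% of all called adherent cells, 24.5% with the neurosphere limit on genes per cell applied to both libraries, 21.2% without cells over the 95th percentile and 11.4% after thinning. For neurosphere cells the values were 53.3% of all called cells, 57.6% without cluster 6 and 37.3% after thinning. At a resolution of 0.8, with 9 adherent and 7 neurosphere clusters, the same 7 genes had their highest neurosphere level in a single cluster. Counted over all 23649 genes with a UMI, 5491 were over 2-fold higher and 4842 lower, against 3181 and 1711 of those with 50 UMIs. Leaving out cluster 6 and the shared barcodes were alternatives chosen after seeing the data. No paired analysis was possible because each culture has 1 library. With 1 library per culture, values of Mobp and of adherent Mag, Mog and Omg rest on 0 to 15 UMIs.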
